A study of Mus musculus with 6 samples.

Results

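Amacrine cells and horizontal cells are the inhibitory interneurons of the retina, and the 9 genes Tfap2a, Tfap2b, Tfap2c, Pax6, Lhx1, Onecut1, Onecut2, Prox1 and Isl1 encode transcription factors that specify them or mark them in the adult. They were taken by name, as every probe set annotated with exactly 1 of these symbols, which gave 9 of the 18193 measured genes and 25 of the 45037 probe sets. A probe set is a group of short oligonucleotides on the array that together read 1 transcript. RNA came from adult retina, as 3 Trim9 KO samples and 3 samples of WT littermates, each hybridized to its own Affymetrix mouse genome array. The KO allele has lost exon 1 of Trim9, a brain-enriched ubiquitin ligase, after the exon was cut out with a CMV-driven Cre that acts throughout the body, so every retinal cell type carries the deletion. The labels do not say how old the adults were or whether a sample pools animals, and their collection note speaks of embryos although the tissue is given as adult.

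The 3 AP-2 proteins encoded by Tfap2a, Tfap2b and Tfap2c bind DNA as dimers and are found in amacrine cells, and the first pair is also used by developing horizontal cells. Pax6, a paired-box and homeobox factor of retinal progenitors, is kept in mature amacrine and ganglion cells. Prox1, Onecut1, Onecut2 and Lhx1 act in horizontal cells: Onecut1 and Onecut2 are needed to make them, Prox1 promotes their fate and Lhx1 places them in their layer. Isl1 is a LIM-homeodomain factor of cholinergic starburst amacrine cells, ON bipolar cells and ganglion cells, and Prox1 is also present in AII amacrine cells, bipolar cells and Müller glia, so neither reads 1 cell type alone.

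Since these factors bind DNA, the promoters of the members were searched for letters that their own families recognise, to show which of them carry a match. Of the 9 genes, 7 were found in the RefSeq promoter table (build GRCm38.p6), with 10 windows of 300 bases (250 before the start of transcription and 50 from it). On both strands, the AP-2 motif GCCNNNGGC was present in 1 of the 10 windows (Pax6) and in 16.6% of all 32851 windows in the table. The Onecut core ATTGAT was present in 1 window (Tfap2b), against 7.54% of all windows, and the homeodomain motif TAATTA in 1 window (Tfap2a), against 5.29%. The matches do not overlap each other. They are a description of letters and not of binding. The stretches below hold the 3 matches in capitals, counted from the start of transcription, each 100 bases long.
Pax6, chr2:105668646-105668745, plus strand, bases -250 to -151, AP-2 motif at -221 to -213: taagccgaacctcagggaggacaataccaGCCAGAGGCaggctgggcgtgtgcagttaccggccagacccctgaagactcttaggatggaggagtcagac
Tfap2b, chr1:19211957-19212056, plus strand, bases -97 to 3, Onecut core on the reverse strand at -3 to 3: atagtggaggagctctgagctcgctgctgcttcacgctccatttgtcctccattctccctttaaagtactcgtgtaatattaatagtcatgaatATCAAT
Tfap2a, chr13:40734918-40735017, minus strand, bases -97 to 3, homeodomain motif at -32 to -27: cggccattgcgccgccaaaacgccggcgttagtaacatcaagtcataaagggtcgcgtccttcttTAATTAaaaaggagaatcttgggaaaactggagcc

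Values are linear intensities, put on the scale of log2(intensity + 16) before limma was used to compare the genotypes. At an adjusted p of 0.05 the test called 0% of the 45037 probe sets (lowest adjusted p = 0.999), with 1296 below 0.05 before adjustment. The median probe set had a log2 fold change (Trim9 KO over WT) of 0.18, or of 0.015 after quantile normalization and -0.14 with equal array medians, and single genes are read against this shift. Trim9 itself read 1498, 497 and 367 on Trim9 KO replicates 1, 2 and 3, against 4226, 1767 and 1667 on WT replicates 1, 2 and 3, which gave a log2 fold change of -1.81 (standard error 0.99) with no overlap. The other 3 probe sets for Trim9 gave -2.48 without overlap, and -0.77 and -0.57 with overlap (standard errors 1.26, 0.95 and 1.01), so the targeted gene did not separate the genotypes by every probe set. Whether any of them lies in the deleted exon is not given in the sources used here. Trim9 KO replicate 1 stood apart, with a Pearson's r of 0.466 to 0.516 with the other arrays across probe sets, whereas the highest r of each of the others was 0.682 to 0.887. The ratio of 3' to 5' signal of Actb, which grows as RNA is degraded, was 2.83, 94.5 and 90.5 on Trim9 KO replicates 1, 2 and 3, against 20.2, 9.87 and 3.43 on WT replicates 1, 2 and 3. The same ratio of Gapdh ordered the arrays differently, at 134, 153 and 163 in Trim9 KO against 310, 82 and 0.905 in WT retinas. With 3 arrays a group, an exact permutation test cannot give a p below 0.1, and this small number of arrays bounds how precise any value can be. Nothing in the labels says more of how the samples were taken, so the p-values measure the spread between these 6 samples.

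Of the 9 factors, 6 averaged lower in Trim9 KO retinas (Lhx1, Pax6, Onecut1, Tfap2b, Prox1 and Onecut2) and 3 averaged higher (Tfap2c, Isl1 and Tfap2a), where 44.8% of all genes averaged lower. The median log2 fold change of the 9 was -0.20, with a range of -1.83 for Lhx1 to 1.16 for Tfap2c. None passed limma over all probe sets (adjusted p = 0.999 for each), and 0 of the 25 probe sets had an unadjusted p under 0.05. The sign of the median rested on single arrays: it was 0.15 without Trim9 KO replicate 3 and 0.22 without WT replicate 2, but -0.93 without Trim9 KO replicate 1, -0.71 without WT replicate 1 and -0.53 with equal array medians. By their brightest probe sets, 2 factors had all KO arrays above all WT arrays and 0 all below, where 5.35% and 2.89% of all genes did. Over the 25 probe sets these counts were 2 and 1, where 5.16% and 2.76% of all probe sets did. Since these are whole retinas, fewer cells of a type and less RNA per cell cannot be told apart.

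**Figure D1:**
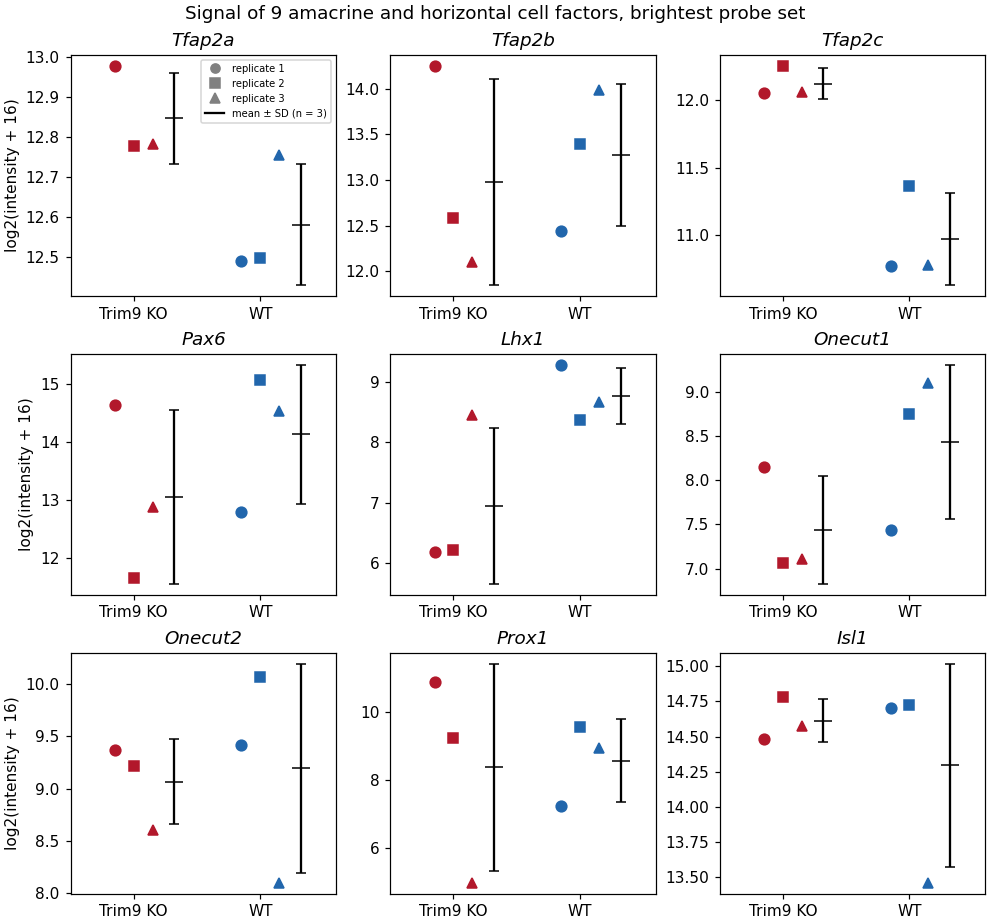
Log2(intensity + 16) of the brightest probe set of each of the 9 factors (y axis, own range in each panel) on the 3 Trim9 KO (red, left) and 3 WT (blue, right) arrays; symbols give the replicate number, and bars the mean ± SD. All 3 Trim9 KO arrays lie above all 3 WT arrays for Tfap2a and Tfap2c, and the groups overlap for the other 7 factors.

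Among the AP-2 genes, Tfap2c showed the clearest separation between genotypes. Its brightest probe set read 4243, 4881 and 4255 in Trim9 KO retinas, against 1725, 2618 and 1734 in WT retinas. Every KO array was above every WT array, and the groups averaged 12.12 ± 0.12 in Trim9 KO and 10.97 ± 0.34 in WT (log2 intensity, mean ± SD, n = 3 each). The log2 fold change was 1.16 (standard error 0.90, 95% interval -0.81 to 3.12), with an adjusted p in limma of 0.999 and an exact two-sided permutation p of 0.1. It kept its sign in all 16 other settings, between 0.45 with the mean of its probe sets and 1.36 without WT replicate 2. Of these, the replicate block, limma-trend and the filter on dim probe sets cannot change the fold change of a gene they keep. The groups were also apart after quantile normalization but overlapped with equal array medians.

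The remaining probe sets for Tfap2c were dim, with means below the median of all probe sets, and did not share this pattern. The first read 760, 41.3 and 289 in Trim9 KO against 23.5, 61.4 and 983 in WT retinas (log2 fold change 0.72, standard error 1.39). The other read 126, 41.9 and 271 in Trim9 KO against 49.1, 190 and 503 in WT retinas (-0.52, standard error 1.10). The brightest probe set carries the suffix _s_at, which the manufacturer gives to probe sets whose oligonucleotides match more than 1 transcript, so what it reads beside Tfap2c was not tested.

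Tfap2a varied least between arrays. Its brightest probe set read 8052, 7014 and 7039 in Trim9 KO retinas, against 5742, 5767 and 6896 in WT retinas. All KO arrays were above all WT arrays, but by a small margin, since Trim9 KO replicate 2 and WT replicate 3 differed by less than the SD of either group. The log2 fold change was 0.27 (standard error 0.89, 95% interval -1.69 to 2.22, exact two-sided permutation p = 0.1), close to the 0.18 of all probe sets. With equal array medians it was -0.06, and the groups overlapped there and after quantile normalization.

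The further probe sets for Tfap2a went in opposite directions. One read 319, 1238 and 2425 in Trim9 KO against 2662, 2691 and 2435 in WT retinas, so all KO arrays were below all WT arrays (log2 fold change -1.37, standard error 1.02, exact two-sided permutation p = 0.1). This probe set also carries the suffix _s_at, and its groups overlapped after quantile normalization and with equal array medians. The other read 626, 299 and 210 in Trim9 KO against 17.5, 549 and 200 in WT retinas, with overlap (1.16, standard error 1.17). Thus 1 gene gave a higher, a lower and an overlapping result, depending on the probe set.

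Tfap2b overlapped between genotypes by both of its probe sets. Its brightest probe set read 19490, 6131 and 4369 in Trim9 KO retinas, against 5532, 10732 and 16269 in WT retinas, and the groups overlapped throughout. Its log2 fold change was -0.30 (standard error 1.01, 95% interval -2.50 to 1.91). The sign changed without Trim9 KO replicate 3 (0.15) and without WT replicate 3 (0.06). Its dimmer probe set read 2024, 561 and 18.7 in Trim9 KO against 172, 58.8 and 4684 in WT retinas, with a wide spread within each genotype (-0.23, standard error 1.74).

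**Figure D2:**
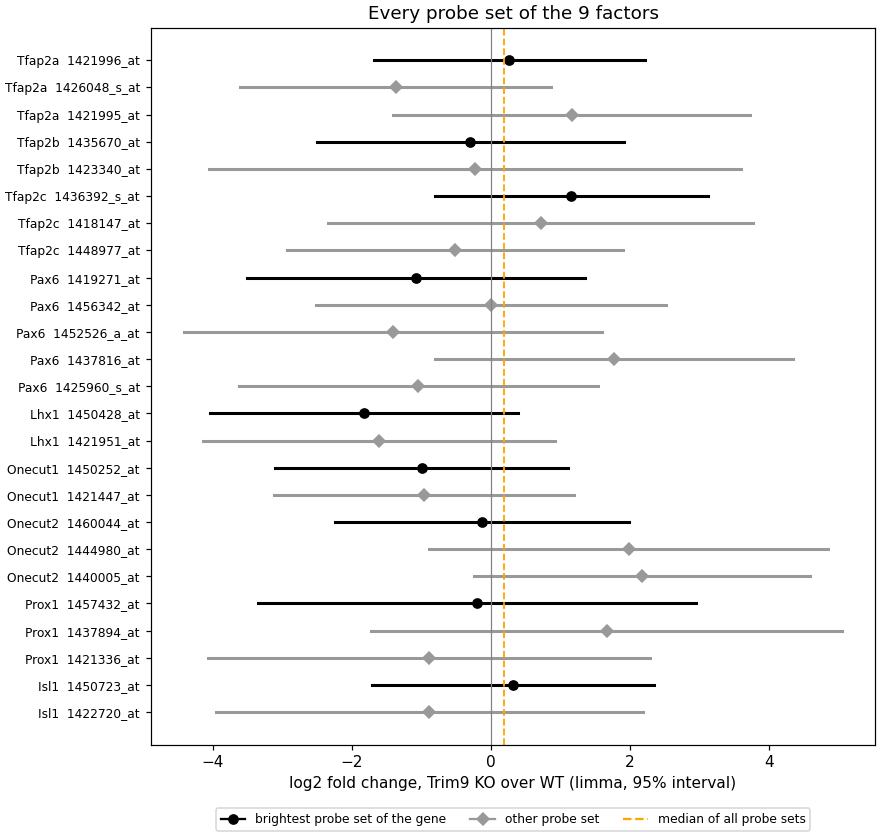
Log2 fold change, Trim9 KO over WT (x axis), with the 95% interval of limma, for each of the 25 probe sets of the 9 factors (y axis, gene and probe set); black circles are the brightest probe set of a gene, grey diamonds the others, and the dashed line marks the overall median (0.18). Every interval includes 0, and the probe sets of Tfap2a, Tfap2c, Pax6, Onecut2, Prox1 and Isl1 lie on both sides of it.

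Pax6 averaged lower in Trim9 KO retinas by its brightest probe set, which read 25353, 3211 and 7476 in Trim9 KO, against 7049, 34384 and 23730 in WT. The groups overlapped, with Trim9 KO replicate 1 among the high arrays and WT replicate 1 among the low ones. This gave a log2 fold change of -1.08 (standard error 1.11, 95% interval -3.50 to 1.35, exact two-sided permutation p = 0.5). It was negative in all 16 other settings, some of which cannot change it. Its size depended on the arrays, at -1.87 without Trim9 KO replicate 1 but -0.38 when replicate 2 was left out instead. The other 4 probe sets for Pax6 had log2 fold changes of -1.41, -1.04, -0.001 and 1.77 (standard errors 1.15 to 1.37).

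Besides Tfap2b, the factors whose probe sets all averaged lower in Trim9 KO retinas were Lhx1 and Onecut1 of horizontal cells, both dim, with means below the median of all probe sets. Lhx1 read 56.6, 58.4 and 332 in Trim9 KO, against 608, 315 and 390 in WT retinas. Trim9 KO replicates 1 and 2 were below every WT array, and Trim9 KO replicate 3 lay between WT replicates 2 and 3. The log2 fold change was -1.83 (standard error 1.01, 95% interval -4.04 to 0.38), and -2.57 without Trim9 KO replicate 3. With a limma adjusted p of 0.999 and an exact two-sided permutation p of 0.2, this difference did not pass the test. It stayed negative in all 15 other settings that measured it, some of which cannot change it, between -2.57 and -1.43, with adjusted p-values of 0.462 to 1. The second probe set for Lhx1 read 69.5, 33 and 45.6 in Trim9 KO against 126, 935 and 38.7 in WT retinas (-1.61, standard error 1.15), where WT replicate 3 fell among the KO arrays.

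Onecut1 read 267, 118 and 122 in Trim9 KO retinas, against 158, 417 and 533 in WT retinas, and Trim9 KO replicate 1 lay above WT replicate 1. This was a log2 fold change of -0.99 (standard error 0.96, 95% interval -3.10 to 1.11, exact two-sided permutation p = 0.2), and it ranged from -1.49 without WT replicate 1 to -0.66 without WT replicate 3. After quantile normalization and with equal array medians the genotypes separated, every KO array being under every WT array, at log2 fold changes of -1.16 and -1.32 (adjusted p in limma of 0.99 or above). The second probe set gave -0.97 (standard error 0.98), from 58.8, 20 and 165 in Trim9 KO against 102, 181 and 139 in WT retinas.

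Its relative Onecut2 was read differently by its probe sets. The brightest read 647, 580 and 373 in Trim9 KO, against 667, 1053 and 258 in WT retinas, a log2 fold change of -0.13 (standard error 0.96, 95% interval -2.24 to 1.99). The other probe sets had higher means in Trim9 KO, with 2108, 237 and 143 against 35.7, 35.3 and 509 in WT (1.98, standard error 1.30), and 1029, 450 and 128 against 136, 18.5 and 129 in WT (2.18, standard error 1.10). The highest value of both came from Trim9 KO replicate 1. The mean of all probe sets for Onecut2 then gave 1.34, the other sign.

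Prox1 varied most within genotypes. Its brightest probe set read 1860, 584 and 15.7 in Trim9 KO, against 133, 737 and 469 in WT retinas, so that the highest and the lowest array were both KO. The log2 fold change of -0.20 (standard error 1.43, 95% interval -3.35 to 2.94) was 1.49 without Trim9 KO replicate 3, whereas it was -1.46 when replicate 1 of that genotype was left out. The other probe sets gave 1.67 and -0.89 (standard errors 1.54 and 1.45).

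Isl1, in contrast, was even across arrays, at 22915, 28183 and 24369 in Trim9 KO retinas, against 26606, 27057 and 11222 in WT retinas. Only WT replicate 3 stood lower than the rest. From these values came a log2 fold change of 0.32 (standard error 0.92, 95% interval -1.71 to 2.35), which was -0.10 without WT replicate 3 and -0.001 with equal array medians. The dimmer probe set for Isl1 ranged from 299 to 3874 in Trim9 KO and from 352 to 11198 in WT retinas (-0.89, standard error 1.40).

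**Figure D3:**
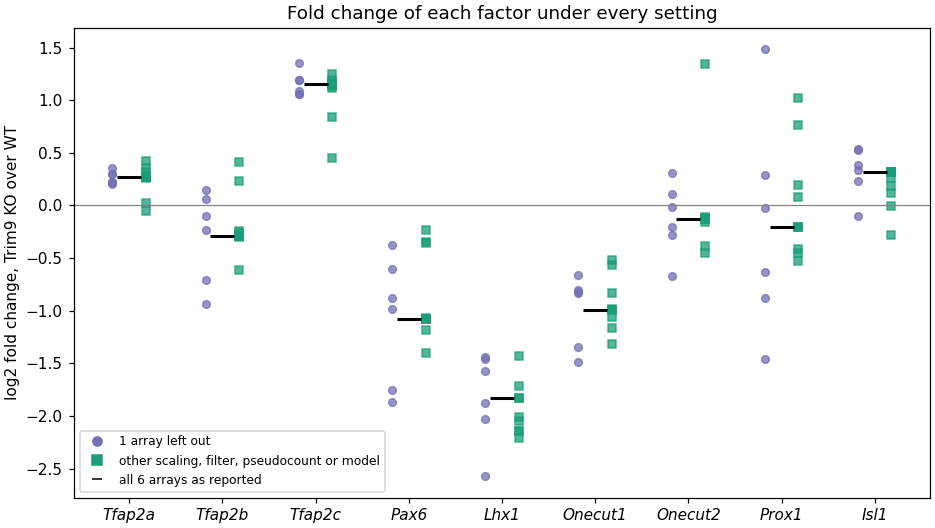
The y axis gives the log2 fold change (Trim9 KO over WT) and the x axis the 9 factors, with all 6 arrays (black bar), with 1 array left out (purple circles) and under another scaling, filter, pseudocount or model (green squares). Tfap2c stays above 0 and Pax6, Lhx1 and Onecut1 stay below 0 in every setting that measured them, whereas Tfap2a, Tfap2b, Onecut2, Prox1 and Isl1 have points on both sides.

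Some factors whose genotypes overlapped did separate the arrays by their Actb ratio. Trim9 KO replicate 1 and WT replicates 2 and 3, the 3 arrays with an Actb ratio under 10, were the highest 3 for Pax6, Tfap2b and Onecut1. This order was present in 3 of the 9 factors and the opposite order in 0, where 10.3% and 11.9% of all genes had them, so the share of the members was above that of all genes in 1 direction only and no test was made of it. The mean log2 level was higher on these 3 arrays than on the other 3 by 2.31 for Pax6, by 1.50 for Tfap2b and by 1.47 for Onecut1, and by 0.19 for the median gene. Prox1 was also higher there by 2.64, with overlap. The other 5 factors differed by -0.46 (Isl1) to 0.10 (Onecut2). These are values of brightest probe sets, and the dimmer probe sets did not all keep this division. The dimmer probe set for Isl1 was 3.15 higher on the 3 arrays of low ratio, without overlap. Others differed, with overlap, by 2.15 and 1.27 for Tfap2c, 1.68 and -0.63 for Tfap2a, and 1.59 and -0.32 for Onecut2. So did those for Lhx1 (1.125), Onecut1 (0.525) and Tfap2b (2.53). The further probe sets for Prox1 were at 3.24 without overlap and 1.6 with overlap. Those for Pax6 were at 3.56 and 2.31 without overlap, and at 1.63 and -0.13 with overlap. By the Gapdh ratio, Trim9 KO replicate 1 (134) was close to Trim9 KO replicates 2 and 3 (153 and 163), so the arrays under 10 for Actb are not all low for Gapdh. The part of RNA quality in these levels was not tested.

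Within the arrays of low Actb ratio, Trim9 KO replicate 1 minus the mean of WT replicates 2 and 3 was -0.17 for Pax6, 0.56 for Tfap2b and -0.78 for Onecut1 on the log2 scale. Within the arrays of high ratio, the mean of Trim9 KO replicates 2 and 3 minus WT replicate 1 was -0.52 for Pax6, -0.10 for Tfap2b and -0.36 for Onecut1. For Lhx1 these differences were -2.34 and -1.95, for Tfap2c 0.99 and 1.39, and for Tfap2a 0.35 and 0.29. These values are a description, since each sets 1 array against 2 and the classes were chosen after the data were seen. By the brightest probe sets, the sign was the same within both kinds of array for Pax6, Onecut1, Lhx1, Tfap2c and Tfap2a. It was opposite for Tfap2b, Prox1, Onecut2 and Isl1. With the Actb class as a block, an alternative chosen after the data were seen, the log2 fold change was -0.35 for Pax6, -0.57 for Onecut1, 0.23 for Tfap2b, -2.15 for Lhx1 and 1.19 for Tfap2c (adjusted p in limma of 0.613 to 0.951). The median of the 9 factors was then 0.19, against -0.20 without the block.

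**Figure D4:**
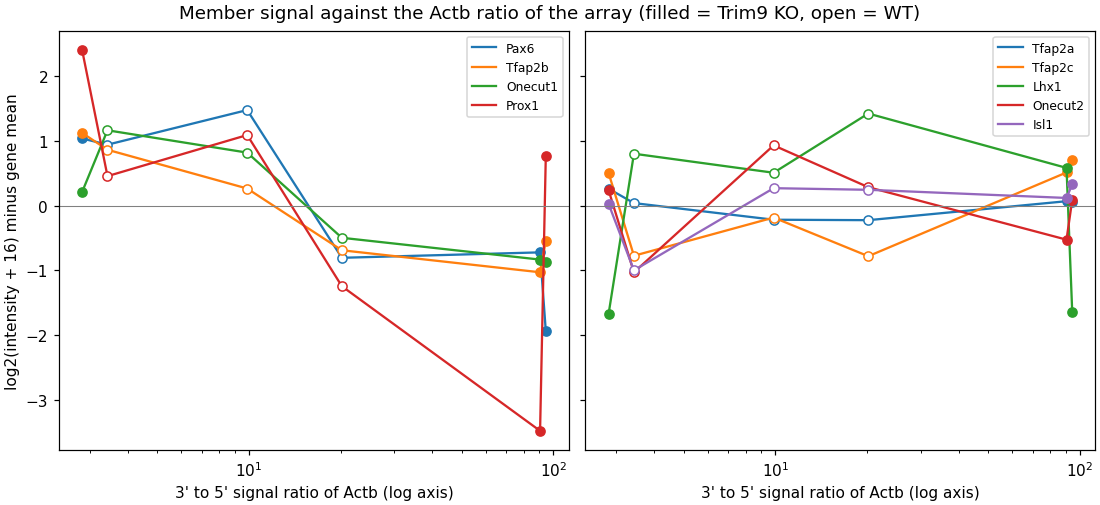
Log2(intensity + 16) of the brightest probe set of each factor minus its mean over the 6 arrays (y axis) against the ratio of 3' to 5' Actb signal of the array (x axis, log scale), with filled points for Trim9 KO and open points for WT arrays and a line joining the points of each gene. On the left, Pax6, Tfap2b and Onecut1 are higher on all 3 arrays with a ratio under 10 than on the 3 others, and Prox1 is so with 1 exception at a ratio of 94.5; on the right, the other 5 factors show no such order.

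The members were then set beside the other factors of these cells. Of 19 further measured factors of amacrine and horizontal cell development, 12 averaged higher in Trim9 KO retinas and 7 averaged lower (median log2 fold change 0.23, and -0.09 with equal array medians and -0.04 with averaged probe sets), and none passed limma. Ptf1a, which commits progenitors to both cell types, read 595, 250 and 282 in Trim9 KO, against 19.2, 77.8 and 106 in WT retinas. Although its signal was dim, all KO arrays were above all WT arrays (2.31, standard error 0.97, adjusted p in limma = 0.999). Foxn4, which acts upstream of Ptf1a, was at 1.12 (standard error 1.06) with overlap. Rorb, a nuclear receptor of photoreceptors, amacrine and horizontal cells, read 13713, 3500 and 13835 in Trim9 KO, against 17701, 23996 and 26107 in WT retinas, with all KO arrays below (-1.35, standard error 0.98). The other probe sets for Rorb, nearly as bright, overlapped between genotypes (-0.29, standard error 1.36, and -0.48, standard error 1.00). Of 6 family relatives of the members, 5 averaged lower (median -0.46, and -0.82 without WT replicate 1 to -0.16 without Trim9 KO replicate 2). That median was -0.08 with dim probe sets left out, -0.09 with the Actb class as a block and -0.12 with averaged probe sets. Tfap2e was at -1.55 (standard error 1.12), Tfap2d at -1.14 (standard error 1.36) and Prox2 at -0.75 (standard error 1.36), each dim and with overlap. The second probe set for Prox2 had the other sign, at 2.21 (standard error 1.15) with overlap.

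The genes that these cells use as mature neurons had no common direction. Of 14 amacrine cell markers, 10 averaged lower in Trim9 KO retinas and 4 averaged higher (median -0.29, and -0.05 without Trim9 KO replicate 2 or -0.61 with equal array medians). Groups without overlap were seen for 0 of them, where 5.35% of all genes had all KO arrays above and 2.89% all below. With so short a list, a count of 0 is near these shares. Slc18a3, the vesicular acetylcholine transporter of starburst cells, read 220, 33.8 and 5.54 in Trim9 KO, against 207, 564 and 647 in WT retinas (-2.80, standard error 1.11). Among other cholinergic genes, Chat was at -0.33 (standard error 1.14) and Slc5a7 at 0.50 (standard error 0.97), both with overlap. Th, the dopamine-synthesizing enzyme, was at 2.35 (standard error 1.23) and the calcium-binding protein Calb2 at -0.93 (standard error 1.08). Of 5 horizontal cell markers, 2 averaged lower and 3 higher (median 0.06). That median turned to -0.13 after quantile normalization, -0.26 with equal array medians, -0.35 and -0.66 with the Actb class or ratio in the model, -0.03 without Trim9 KO replicate 2 and -0.39 without WT replicate 3, and it was 0.66 without Trim9 KO replicate 1 and 0.57 without WT replicate 1. Septin4 was at 0.85 (standard error 1.10) by its brightest probe set and -2.92 (standard error 1.41) by its other one. By their brightest probe sets, Megf11 was at 0.57 (standard error 0.94) and Calb1 at -0.43 (standard error 0.95). The dimmer probe sets for Calb1 had the other sign, at 0.165, 0.723 and 0.855 (standard errors 0.98, 1.13 and 1.23), with overlap. None of these genes passed limma over all probe sets.

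Pax6 and AP-2 genes are also active in the lens and cornea, and Pax6 in the pigment epithelium, so markers of those tissues were read. Of 12 measured lens and cornea markers, 9 averaged higher in Trim9 KO retinas (median 0.70, and 0.27 to 1.29 when an array was left out). Their summed intensity was 4223 to 10715 in Trim9 KO and 1422 to 5622 in WT retinas. Of these markers 0 were without overlap, near the shares of all genes (5.35% above and 2.89% below) for so short a list. The lens channel gene Mip read 56.2, 276 and 66.1 in Trim9 KO against 111, 531 and 6.49 in WT retinas. By their brightest probe sets, all 9 pigment epithelium markers averaged higher in Trim9 KO retinas. Their median was 0.87 (0.55 after quantile normalization or with equal array medians, and 1.66 without Trim9 KO replicate 2). The summed intensity was 389703 to 1368516 in Trim9 KO and 74922 to 480383 in WT retinas. Most of this sum was Ttr, and the other 8 markers summed to 15166, 8271 and 76389 in Trim9 KO against 11407, 5437 and 7539 in WT retinas, with overlap. Mlana, a melanosome protein, read 1312, 255 and 783 in Trim9 KO against 82.9, 73.4 and 132 in WT retinas, without overlap (2.59, standard error 0.98), while Dct was at 1.72 (standard error 1.09) and Ttr at 1.70 (standard error 1.08). Dimmer probe sets of these markers averaged lower for Lrat (-1.52), Ttr (-1.275) and Tyrp1 (-0.875). They averaged higher for Tyr (2.23 and 2.75), Ttr (2.16 and 0.89) and Tyrp1 (0.305). No defining marker was listed at 0. Their part in the values of Tfap2c, Tfap2a or Pax6 was not tested. The label of the tissue held, since the 9 measured photoreceptor markers averaged 14.1 to 15.4 on every array (log2 intensity).

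**Figure D5:**
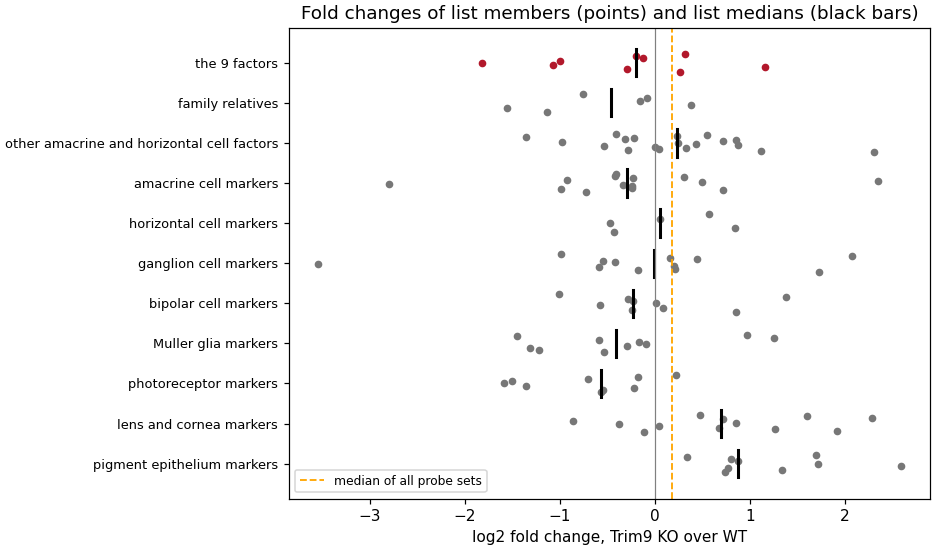
Log2 fold change, Trim9 KO over WT (x axis), of the measured genes of each list (y axis), with 1 point per gene by its brightest probe set; black bars are list medians and the dashed line marks the overall median (0.18). The 9 factors (red, median -0.20) lie on both sides of 0, as do the genes of every other list except the 9 pigment epithelium markers, which are all above 0.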

How the data were processed

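Adult retina of Trim9 KO mice and WT littermates (3 samples each) was profiled on Affymetrix mouse genome arrays, and all 6 arrays were used. The deposited values are linear intensities, which the authors had scaled to a trimmed mean of 1500 on each array. The submitters' processing notes name MAS5 without a version, whereas the methods of the study state RMA from the affy package. The linear scale and the unequal array medians (218 to 807) are those of MAS5, and RMA values were not used here.

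After 64 control probe sets had been set aside, 45037 probe sets were fitted as log2(intensity + 16) with limma 3.58.1 in R 4.3.3, with Benjamini-Hochberg adjustment over all of them and a threshold of 0.05. The fit was checked on simulated data. Each gene was read by its brightest probe set (by the mean of the 6 arrays), among 34945 probe sets annotated with 1 gene; 0 probe sets name a member together with another gene. Exact permutation tests were two-sided. Promoter windows are those of RefSeq. Figures used Python 3.11.15, pandas 2.3.3 and matplotlib 3.10.9.

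The members and lists were chosen with earlier results of these data known. Named genes are Trim9, the 9 members, and up to 3 genes per other list with the largest limma statistic. Mip, Chat, Slc5a7, Lrat and Tyrp1 were added after their values were seen, as was Tyr. The alternatives tried were pseudocounts of 1 and 64, leaving out each array, averaging the probe sets of a gene, a filter on dim probe sets, quantile normalization or equal array medians, limma-trend (robust) and a replicate block; the Actb ratio, as a class or as a covariate, was added after the data were seen.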

Additional observations from a re-analysis of the deposited data

How the results depend on the processing

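No probe set passed the adjusted threshold in any of the 16 other settings. The median of the members was -0.20, and -0.53 with equal array medians, -0.93 to 0.22 when an array was left out, 0.19 with the Actb class as a block and 0.12 with the Actb ratio as a covariate, while 3 to 6 members averaged lower when an array was left out. The sign turned with equal array medians for Tfap2a (-0.056) and Isl1 (-0.001), with averaged probe sets for Onecut2 (1.34), Prox1 (0.19) and Isl1 (-0.28), with a pseudocount of 64 for Prox1 (0.08), with the Actb class for Tfap2b (0.23) and Prox1 (0.76), and with the Actb ratio for Tfap2b (0.41) and Prox1 (1.02). When an array was left out, the log2 fold change ranged from -0.93 to 0.15 for Tfap2b, -0.67 to 0.31 for Onecut2, -1.46 to 1.49 for Prox1 and -0.10 to 0.54 for Isl1. The causes were not tested. Tfap2c, Pax6, Lhx1 and Onecut1 kept their sign in every setting that measured them. Lhx1 and Onecut1 were dropped by the filter on dim probe sets. That filter, limma-trend and the replicate block cannot turn the sign of a gene they keep, since its fold change stays the same. The labels do not say that replicate numbers mark a litter, and the deviations of arrays with the same number from their group means correlated at -0.234, -0.0815 and 0.0331. With the replicate block 864 probe sets had an unadjusted p in limma under 0.05, against 1296 without it. Each replicate number holds an array of each genotype, so the block cannot change a fold change or the median of the members (-0.20).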

Other observations

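Cell types that share some of these factors were read as lists beside them. Of 12 ganglion cell markers, 6 averaged lower and 6 higher in Trim9 KO retinas (median log2 fold change -0.01, and -0.38 without WT replicate 1 to 0.30 without WT replicate 3). The neurofilament gene Nefm was at -3.55 (standard error 1.19), with every KO array under every WT array. By their brightest probe sets, the melanopsin gene Opn4 was at 2.08 (standard error 0.98) and the transcription factor Pou4f1 at 1.73 (standard error 0.98). In both, every KO array lay over every WT array. Their second probe sets overlapped, at 0.98 (standard error 1.18) for Opn4 and, with the other sign, -0.65 (standard error 1.14) for Pou4f1. Of 9 bipolar cell markers, 5 averaged lower (median -0.23, turning to 0.21 when Trim9 KO replicate 2 was left out), including the ON pathway protein Nyx at -1.01 (standard error 1.06), whereas the G protein subunit Gng13 was at 1.38 (standard error 1.02) and the transcription factor Vsx1 at 0.85 (standard error 1.08). Of 10 Müller glia markers, 8 averaged lower (median -0.41, but 0.08 without Trim9 KO replicate 1, -0.69 without replicate 3 of that genotype and -0.02 without WT replicate 1). Dkk3 was at -1.46 (standard error 1.13), the retinoid-binding protein Rlbp1 at -1.22 (standard error 1.02) and Clu at 1.26 (standard error 1.02). The dimmer probe sets for Clu gave 0.93, 1.36 and -0.95 (standard errors 1.10, 0.98 and 1.17), with overlap. Of 9 photoreceptor markers, 8 averaged lower (median -0.57, and -1.18 after quantile normalization, -0.89 with equal array medians, -1.14 without WT replicate 1 and -0.35 without WT replicate 3). These included the opsins Opn1sw (-1.59, standard error 1.22) and Opn1mw (-1.51, standard error 1.36) and the rod arrestin Sag (-1.35, standard error 1.05). The second probe set for Opn1sw had the other sign, at 0.52 (standard error 0.93) with overlap. In the lens and cornea list, the keratin gene Krt5 was at 2.29 (standard error 1.29) and the crystallins Crygs and Crygd at 1.91 (standard error 1.43) and 1.26 (standard error 0.96). None of these genes passed limma over all probe sets.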
